A study of Mus musculus with 10 samples.

Results

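Nodal is a secreted ligand of the TGF-β family that signals through activin receptors and their co-receptor Cripto to SMAD2 and SMAD3, which act on DNA with partners such as FOXH1. Among the genes that the pathway switches on are its own secreted antagonists, LEFTY1 and LEFTY2, and intracellular brakes such as SMAD7 and SKIL, so that the pathway limits itself. In the early mouse embryo this circuit patterns the epiblast and the left-right axis, and cultured embryonic stem cells transcribe most of it. Here 6 genes of the circuit were followed by name: the ligand Nodal, the antagonists Lefty1 and Lefty2, the inhibitory SMAD gene Smad7, the SMAD co-repressor gene Skil and the type II receptor gene Acvr2b. All 6 had a transcribed unit (TU, a stretch of continuous nascent transcription on 1 strand) among the 40779 TUs counted, and all 6 were among the 28459 TUs that passed the filter on low counts.

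Nascent RNA was measured by TT_chem-seq, in which newly made RNA is tagged with 4-thiouridine (2 mM for 10 min), fragmented, captured and sequenced. The cells were E14 mouse embryonic stem cells in which SOX2 carried an FKBP degron, a tag through which the small molecule dTAG-13 sends the protein to the proteasome. They were kept without serum in medium holding LIF, the MEK inhibitor PD0325901 and the GSK3 inhibitor CHIR99021, in every group. Cells given DMSO (not treated, NT) were compared with cells at 0.5, 1, 2 and 6 hours post depletion (hpd) with 500 nM dTAG-13, with 2 replicates in each of the 5 groups. All libraries carried the tag, untagged cells given dTAG-13 were not analysed here, and the sources used here do not say whether the replicates came from separate clones or cultures, so that the p-values measure only the spread between these libraries, which may be technical.

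The 10 libraries held 11131490 to 25854106 fragments. Sox2 itself, whose protein and not its transcription was targeted, lay at a mean of 262.8 CPM in NT and 274.5 CPM at 6 hpd and was not called at any time (edgeR quasi-likelihood test, adjusted p of 0.62 to 0.99), so its counts do not check the depletion. CPM are fragments scaled to library size with TMM factors, which correct for differences in composition. All 10 embryonic stem cell markers were measured, and their summed level ran from 4430 to 4850 CPM in NT and from 3810 to 4070 CPM at 6 hpd, where 5 of the 10 had fallen. The summed level of primitive endoderm markers, of which all 6 were in the table and 5 were tested, ran from 17.6 to 17.9 CPM in NT and from 51.7 to 62.4 CPM at 6 hpd, of which Dab2 made up 44.7 to 54.7 CPM. Sox7 was listed at 0 in 1 NT library, and Gata4 did not exceed 1.28 CPM in any library. Neural markers (3 of 4 in the table) went from 40.3 to 43.5 CPM in NT to 25 to 27 CPM at 6 hpd, where 2 of 3 had fallen, and trophoblast markers (3 of 5) from 39.7 to 45.9 CPM to 22.1 to 26.6 CPM, where 1 of the 2 tested had fallen. Mesendoderm markers (3 of 5) went from 18.5 to 22 CPM to 12.6 to 13.3 CPM, and fibroblast markers (3 of 5) did not exceed 2.57 CPM in any library. Primed epiblast markers (2 of 4) went from 8.68 to 9.59 CPM to 6.81 to 7.22 CPM, although 1 of them, Pou3f1, had risen 9.29-fold (adjusted p = 9.6e-05, edgeR). That rise started from only 3 and 5 fragments in the NT libraries. The part of these shifts in the changes given for the 6 genes was not tested. In bulk samples, fewer transcribing cells and less RNA made per cell cannot be told apart.

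The bases just upstream of the annotated start were taken from RefSeq (GRCm38.p6, the assembly that mm10 names) for the members that its promoter table held, Nodal and Acvr2b, to show which motif letters stand there. Both are 250 bases on the plus strand and end next to the start, Nodal at chr10:61417722-61417971 and Acvr2b at chr9:119401928-119402177. The Nodal TU began 3.23 kb before the annotated start, so its printed bases lie inside the TU and not upstream of it. That of Acvr2b began 0.07 kb before the annotated start. Capitals mark matches to the motifs searched on both strands, which were the SOX core ACAANG, the POU octamer ATGCAAAT, the FOXH1 motif AATNCACA and the SMAD motif CAGACA.
Nodal: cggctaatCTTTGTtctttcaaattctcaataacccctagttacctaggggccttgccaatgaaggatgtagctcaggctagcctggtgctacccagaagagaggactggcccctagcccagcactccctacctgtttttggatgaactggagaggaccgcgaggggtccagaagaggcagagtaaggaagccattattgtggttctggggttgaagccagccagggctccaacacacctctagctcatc
Acvr2b: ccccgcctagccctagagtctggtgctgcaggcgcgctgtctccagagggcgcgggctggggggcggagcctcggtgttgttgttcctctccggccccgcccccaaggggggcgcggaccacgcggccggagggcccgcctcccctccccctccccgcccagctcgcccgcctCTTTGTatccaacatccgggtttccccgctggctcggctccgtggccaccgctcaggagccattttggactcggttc
Each sequence held 1 match to the SOX core, on the minus strand in both, which begins 242 bases before the start of Nodal and 77 bases before that of Acvr2b. Such a match was present in 36.3% of the 32851 promoters in the table over the same 250 bases. Neither sequence held these letters of the octamer, the FOXH1 motif or the SMAD motif, which were present in 1.6%, 3.18% and 17.1% of the promoters. A match of letters is a description and says nothing of binding.

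The 6 genes differed widely in how strongly NT cells transcribed them. Per kb of TU, Smad7 stood highest at 13.9 CPM per kb, above 99% of tested genes, followed by Nodal at 4.56 and Lefty2 at 1.68 CPM per kb. Skil (1.12 CPM per kb), Acvr2b (1.08) and Lefty1 (0.884) came last: the NT libraries of Skil (1.07 to 1.17) lay inside the range of Acvr2b (0.949 to 1.21), which also overlapped that of Lefty1 (0.796 to 0.972), while Skil lay above Lefty1. The first 3 levels did not overlap each other or the rest. The antagonist Lefty1, the one with the largest change, thus rested on few fragments, 53 and 60 in the NT libraries over a TU of 4.48 kb.

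SOX2 depletion was followed by a steep loss of Lefty1, a late fall of Lefty2 and a rise of Skil called only at 6 hpd. In the main fit, which had no block, Nodal, Smad7 and Acvr2b were not called against NT at any time. No member was called at 0.5 hpd, Lefty1 alone at 1 and at 2 hpd, and Lefty1, Lefty2 and Skil at 6 hpd. The share of all tested TUs that was called was 1.31% at 0.5 hpd, 5.75% after 1 hour, 9.83% after 2 hours and 15.8% after 6 hours. In a joint test of the 4 times, which called 12.3% of TUs, the same 3 genes passed: Lefty1 (adjusted p = 5e-05), Lefty2 (0.0019) and Skil (0.0099). The median log2 fold change over the 6 genes was 0.01, 0.11, 0.10 and -0.02 at the 4 times, against -0.02, -0.04, -0.04 and -0.04 over all TUs. With the replicate number as a block in the fit, 2, 3, 2 and 3 members were called at the 4 times, where 1120, 3188, 5446 and 7430 of all TUs were. Among these members were Lefty2 up at 0.5, 1 and 2 hpd and Smad7 down at 1 hpd.

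**Figure D1:**
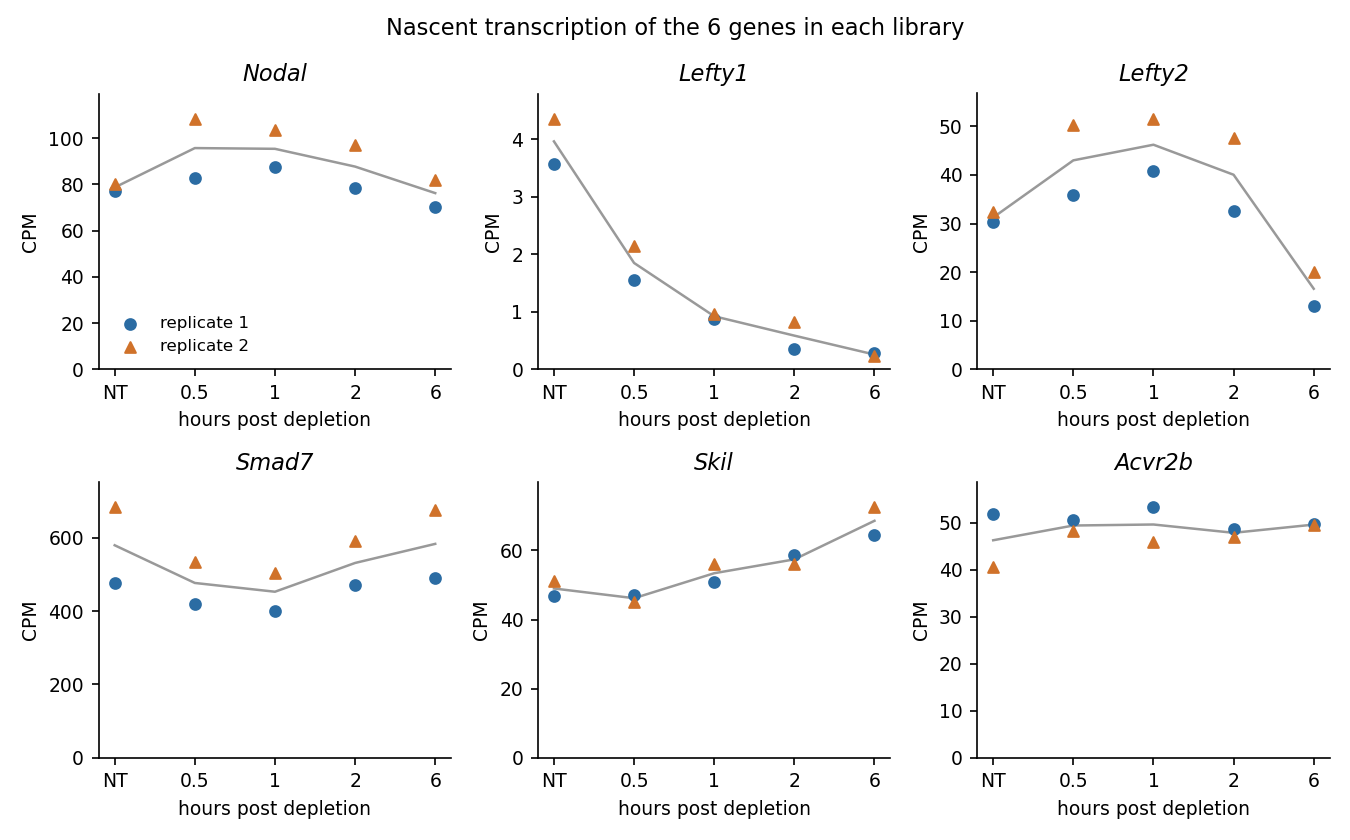
Nascent transcription (CPM, linear axes from 0, each panel on its own scale) of the 6 genes in NT cells and at 0.5, 1, 2 and 6 hours post depletion, which are spaced evenly and not to scale. Circles are replicate 1, triangles replicate 2 and the line joins the group means. Lefty1 goes from 3.57 and 4.36 CPM in NT to 0.281 and 0.233 CPM at 6 hpd, Lefty2 drops between 2 and 6 hpd, and Skil is highest at 6 hpd.

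Nodal was transcribed at 77.3 and 80.2 CPM in the NT libraries, 83.0 and 108.5 CPM in those from 0.5 hpd, and 87.4 and 103.4 CPM in those from 1 hpd. It then stood at 78.3 and 97.2 CPM at 2 hpd and at 70.5 and 82.1 CPM at 6 hpd. The libraries at 0.5 and 1 hpd lay above both NT libraries, those at 2 and 6 hpd overlapped them, and replicate 2 was above replicate 1 in all 5 groups. With total counts only, 0.5 hpd replicate 1 (82.2 CPM) lay between the NT libraries (79.6 and 84.5 CPM). Both 6 hpd libraries (70.3 and 79.0 CPM) then lay below NT. The log2 fold changes against NT were 0.28 ± 0.14 (SE from the fit, n = 2 per group) at 0.5 hpd (adjusted p = 0.6, edgeR) and 0.28 ± 0.14 at 1 hpd (0.33). Leaving out 1 library gave 0.09 (without 0.5 hpd replicate 2) to 0.46 (without 0.5 hpd replicate 1) for the first and 0.15 (without 1 hpd replicate 2) to 0.39 (without 1 hpd replicate 1) for the second. At 6 hpd the change was -0.04 ± 0.14 (0.86), with a 95% interval of -0.35 to 0.26, so that the ligand gene could have moved by that much either way without being called. The Nodal TU (chr10:61414743-61431988, plus strand, mm10) was 2.34 times as long as its annotated transcript, starting 3.23 kb before it, and lay wholly inside the Eif4ebp2 TU on the other strand, which was at 144 CPM in NT and was not called. Alignments had been split by strand, but how far the libraries kept reads of opposite strands apart was not tested.

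Lefty1, whose product blocks Nodal outside the cell, fell in the first hour, and its mean level was lower at each later time. Its libraries stood at 3.57 and 4.36 CPM in NT and 1.56 and 2.14 CPM at 0.5 hpd. They reached 0.878 and 0.968 CPM at 1 hpd, 0.354 and 0.818 CPM at 2 hpd, and 0.281 and 0.233 CPM at 6 hpd. Every depleted library lay below both NT libraries, and the groups were in the order of time with no overlap between any of the 5. The log2 fold change was -1.14 ± 0.30 at 0.5 hpd, which missed the threshold (adjusted p = 0.089). It was -2.09 ± 0.33 at 1 hpd (0.0013), -2.77 ± 0.36 at 2 hpd (0.00013) and -3.92 ± 0.43 at 6 hpd (1.8e-05, edgeR). The last is 15.1-fold lower than in NT, with a 95% interval of the log2 change from -4.83 to -3.01. It rested on 4 fragments in each library at 6 hpd. No step between successive times passed the test, and from 1 to 6 hpd the difference was -1.83 ± 0.52 (adjusted p = 0.06). The falls at 1, 2 and 6 hpd were called whichever library was left out, although the value at 2 hpd was -3.47 without 2 hpd replicate 2 and -2.26 without 2 hpd replicate 1. With the replicate number as a block, the changes at 0.5 hpd (adjusted p = 0.012, edgeR) and from 1 to 6 hpd (0.02) were called as well.

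Lefty2, the sister gene of Lefty1 and also a secreted antagonist, took another path. The NT libraries stood at 30.2 and 32.3 CPM, those at 0.5 hpd at 35.8 and 50.2, and those at 1 hpd at 40.8 and 51.6 CPM. At 2 hpd they read 32.6 and 47.5 CPM and at 6 hpd 13.1 and 20.1 CPM. All 6 libraries from 0.5 to 2 hpd lay above both NT libraries and both at 6 hpd lay below, and replicate 2 exceeded replicate 1 in every group. The early values, a log2 fold change of 0.45 ± 0.21 at 0.5 hpd (adjusted p = 0.52), 0.57 ± 0.21 at 1 hpd (0.15) and 0.36 ± 0.21 at 2 hpd (0.32), were not called without a block. With the replicate number as a block all 3 were called (adjusted p of 0.029, 0.0021 and 0.041, edgeR), although nothing in the labels pairs the replicates. Leaving out 1 library gave 0.21 to 0.68 at 0.5 hpd, 0.39 to 0.72 at 1 hpd and 0.05 to 0.61 at 2 hpd, the lowest each time without replicate 2 of that time and the highest without its replicate 1. With only the NT and 1 hpd libraries in the fit, that at 1 hpd was called (0.59, adjusted p = 0.0038). At 6 hpd Lefty2 had fallen by 0.90 ± 0.22 on the log2 scale (adjusted p = 0.012), which is 1.87-fold lower than in NT. This call was lost without NT replicate 2 (-0.84, adjusted p = 0.11) and without 6 hpd replicate 1 (-0.62, 0.15).

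The late drop of Lefty2 was also tested without NT. Between 2 and 6 hpd it fell by 1.26 ± 0.22 on the log2 scale (adjusted p = 0.013, edgeR), where 0.777% of TUs were called, and between 1 and 6 hpd by 1.47 ± 0.22 (0.00094), where 4.88% were. It was the only member called in either, and no member was called from 0.5 to 1 hpd, where 0.109% of TUs were, or from 1 to 2 hpd, where 0.218% were. With the replicate number as a block, 5 members were called from 1 to 6 hpd, among them Nodal (-0.32, adjusted p = 0.029, edgeR) and Smad7 (0.36, 0.02). The call from 2 to 6 hpd was lost without 2 hpd replicate 2 or without 6 hpd replicate 1. Lefty2 thus had 8.47 and 7.4 fragments for each Lefty1 fragment in NT, 22.9 and 23.5 at 0.5 hpd, then 46.5 and 53.3 after 1 hour. The ratio reached 92 and 58.1 after 2 hours and 46.5 and 86.2 after 6 hours, and all 8 depleted libraries were above both NT libraries, while those at 6 hpd overlapped those at 1 and at 2 hpd, which did not overlap each other. The paralogs are similar in sequence, but of the stretches of 50 bases in the Lefty1 TU 7.46% occurred without a mismatch in the Lefty2 TU, and of those in the Lefty2 TU 1.78% occurred in Lefty1. Alignments of low mapping quality had been removed by the authors, so that reads which match both genes equally well would mostly be missing from both counts.

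**Figure D2:**
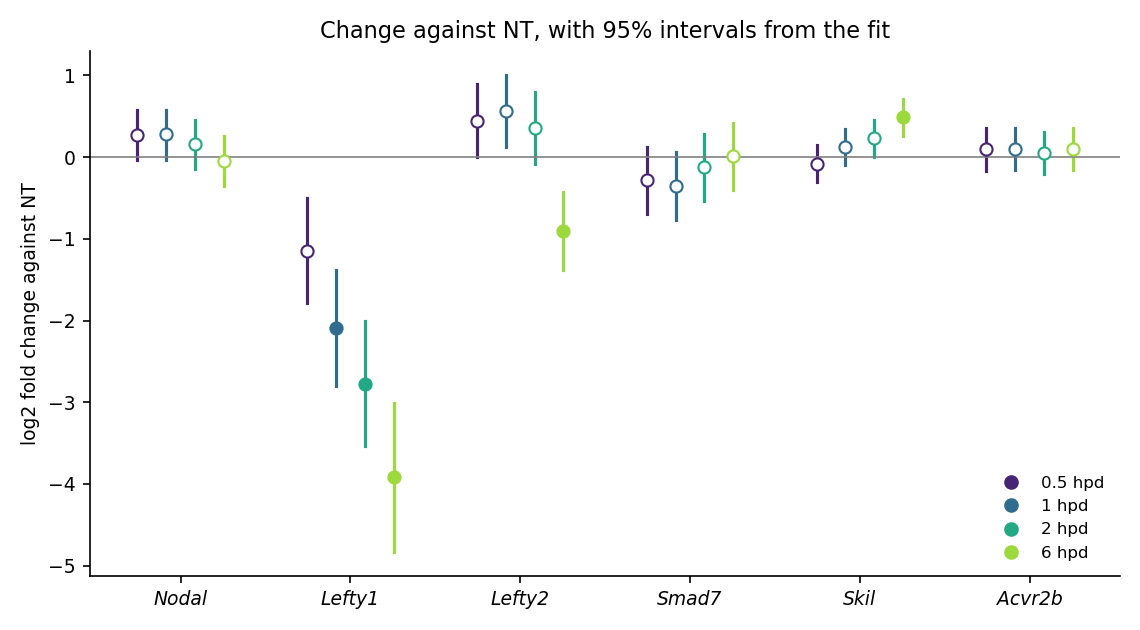
Log2 fold change of each gene against NT at 0.5, 1, 2 and 6 hpd (colours), with 95% intervals from the edgeR fit over 10 libraries. Filled points passed an adjusted p of 0.05: Lefty1 at 1, 2 and 6 hpd (down to -3.92), Lefty2 at 6 hpd (-0.90) and Skil at 6 hpd (0.49). The intervals of Nodal, Smad7 and Acvr2b include 0 at all 4 times.

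Acvr2b encodes a receptor that binds Nodal and activin. It stood at 51.9 and 40.6 CPM in NT, 50.5 and 48.2 CPM at 0.5 hpd, and 53.3 and 45.9 CPM at 1 hpd. It was at 48.7 and 47.0 CPM at 2 hpd and 49.7 and 49.4 CPM at 6 hpd. All libraries from 0.5, 2 and 6 hpd fell between the NT libraries. The log2 fold changes ranged from 0.05 at 2 hpd (adjusted p = 0.85) to 0.10 at 1 hpd (0.72), and the interval at 6 hpd ran from -0.16 to 0.36. Scaled by total counts only, the difference at 2 hpd was -0.07.

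Smad7, which blocks receptor and SMAD activity within the cell, was the most transcribed member. In CPM, though not relative to level, its replicates differed most. Its libraries stood at 475.1 and 683.2 CPM in NT and at 418.7 and 534.2 CPM at 0.5 hpd. They stood at 400.8 and 504.3 CPM at 1 hpd, 470.3 and 591.6 CPM at 2 hpd, and 490.3 and 675.6 CPM at 6 hpd. Replicate 2 was above replicate 1 in all 5 groups, and each group overlapped NT. The change nearest to the threshold was that of 1 hpd, a log2 difference of -0.36 ± 0.19 (adjusted p = 0.36, edgeR), which was called with the replicate number as a block (-0.34, 0.024) and ran from -0.58 without NT replicate 1 to -0.05 without NT replicate 2. The value at 6 hpd was 0.01 ± 0.19 with an interval of -0.40 to 0.42, and its sign was negative with scaling by total counts (-0.09) and with TUs of a mean of at least 50 fragments (-0.05).

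Skil encodes SnoN, a co-repressor that binds SMADs on target genes. Its libraries held 46.8 and 51.2 CPM in NT, 47.2 and 45.2 CPM at 0.5 hpd, and 50.9 and 56.0 CPM at 1 hpd. They held 58.7 and 56.2 CPM at 2 hpd and 64.6 and 72.6 CPM at 6 hpd. The libraries at 2 and 6 hpd were all above NT and did not overlap each other, although by total counts only 2 hpd replicate 1 (53.4 CPM) lay below NT replicate 2 (54.0 CPM). In the fit, Skil differed from NT on the log2 scale by -0.08 ± 0.11 (0.5 hpd), 0.12 ± 0.11 (1 hpd) and 0.23 ± 0.11 (2 hpd), none of them called (adjusted p of 0.2 to 0.91). At 6 hpd Skil had risen by 0.49 ± 0.11 (adjusted p = 0.0058), to 140% of NT, where 6.61% of TUs were called up. Without 6 hpd replicate 2 this call was lost (0.40, adjusted p = 0.08), and from 1 to 6 hpd the difference was 0.36 ± 0.11 (0.065, and 0.014 with the replicate number as a block).

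The genome around the members was examined for TUs that overlap them or lie within 50 kb. Besides the members, 41 such TUs are reported here, of which 28 were tested and 4 were called at any time against NT. Over all tested TUs 18.8% were called at any of the 4 times, so the neighbours were not called more often than TUs in general. Both of those called around the Lefty genes lay on the other strand. Lefty2 (chr1:180885666-180904262) and Lefty1 (chr1:180935052-180939535, both plus strand, mm10) are 30789 bp apart. The Lefty2 TU began 7.44 kb before the annotated start of its transcript, ran 5.16 kb past its end and was 3.1 times as long, whereas the Lefty1 TU began 13 bases after the annotated start.

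At 6 hpd the tested antisense TUs of Lefty2 and Lefty1 were lower as well, while a further TU antisense to Lefty2 over 2027 bp had 52 fragments in all and was not tested. The predicted gene Gm39714, antisense to Lefty2 over 14646 bp, went from 5.79 and 5.89 CPM in NT to 1.69 and 2.91 CPM at 6 hpd (log2 fold change -1.32 ± 0.33, adjusted p = 0.013, edgeR). Gm39715, antisense to Lefty1 over 1709 bp, went from 3.57 and 2.69 CPM in NT to 0.91 and 0.935 CPM at 2 hpd and 0.773 and 0.757 CPM at 6 hpd. It was called at 2 hpd (-1.76 ± 0.39, 0.0095) and at 6 hpd (-2.03 ± 0.42, 0.0038), and was at -1.23 ± 0.37 at 1 hpd (0.073). In both the NT and 6 hpd libraries did not overlap. Whether reads of Lefty2 and Lefty1 were counted in these antisense TUs was not tested.

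**Figure D3:**
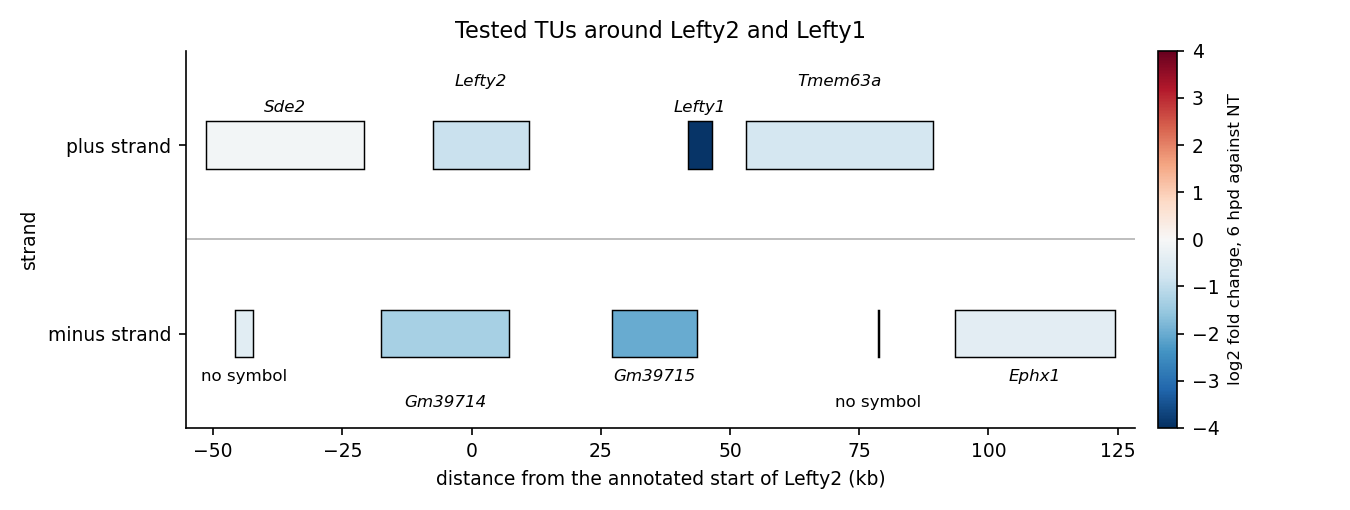
Map of Lefty2, Lefty1 and the tested TUs reported here within 50 kb of them, drawn to scale in kb from the annotated start of Lefty2, with plus-strand TUs above and minus-strand TUs below. Colour is the log2 fold change at 6 hpd against NT (blue lower). Lefty2, Lefty1, Gm39714 and Gm39715 were called down at 6 hpd, between -0.90 and -3.92 on the log2 scale.

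Of the other neighbours that were called, Pald1, 30946 bp from the Nodal TU, rose at 1 hpd (0.45 ± 0.11, adjusted p = 0.018) and at 2 hpd (0.45 ± 0.11, 0.012), times at which Nodal was not called. A TU without a gene symbol, 32683 bp from Skil on the other strand (chr3:31060485-31062306), fell at 6 hpd (-1.09 ± 0.29, 0.019) while Skil (chr3:31094990-31138852, plus strand) rose. No TU called at any time lay within 50 kb of Smad7 (chr18:75364808-75406461, plus strand) or Acvr2b (chr9:119402109-119444912, plus strand), where 7 and 4 were tested. The Skil TU ran 15.93 kb past the annotated end of its transcript, that of Smad7 10.53 kb, that of Nodal 6.65 kb and that of Acvr2b 2.76 kb.

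The 6 genes were set among 53 genes of the Nodal and activin pathway, of which 39 had a tested TU, 1 (Fstl3) had too few counts and 13 were not analysed here because no TU carried their symbol. The list was drawn up with earlier results of these data known, and all tested TUs include those without a gene symbol. Shares called in the list are thus a description and no test. Beside the 6 members, 15 of the other 33 tested genes were called at some time, against 18.8% of all tested TUs. Of these 33, 2 rose and 1 fell at 0.5 hpd, 5 rose and 7 fell at 1 hpd, 3 rose and 9 fell at 2 hpd, and 2 rose and 9 fell at 6 hpd. Of all tested TUs 0.527% rose and 0.787% fell at 0.5 hpd, and 2.15% rose and 3.61% fell at 1 hpd. At 2 hpd 4.26% rose and 5.57% fell, and at 6 hpd 6.61% rose and 9.2% fell. Scaled by total counts only, 28.8% and not 43.4% of the TUs called at 2 hpd were up. The median log2 fold change of the 39 genes was -0.05, 0.06, -0.01 and -0.04 in the order of time, against -0.02, -0.04, -0.04 and -0.04 over all TUs. Of the 39, 3, 13, 13 and 14 were called at the 4 times. At 0.5 hpd the count was 1 without either NT library or either 0.5 hpd library, and at 1 hpd it was 5 without either 1 hpd library and 7 without NT replicate 2.

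**Figure D4:**
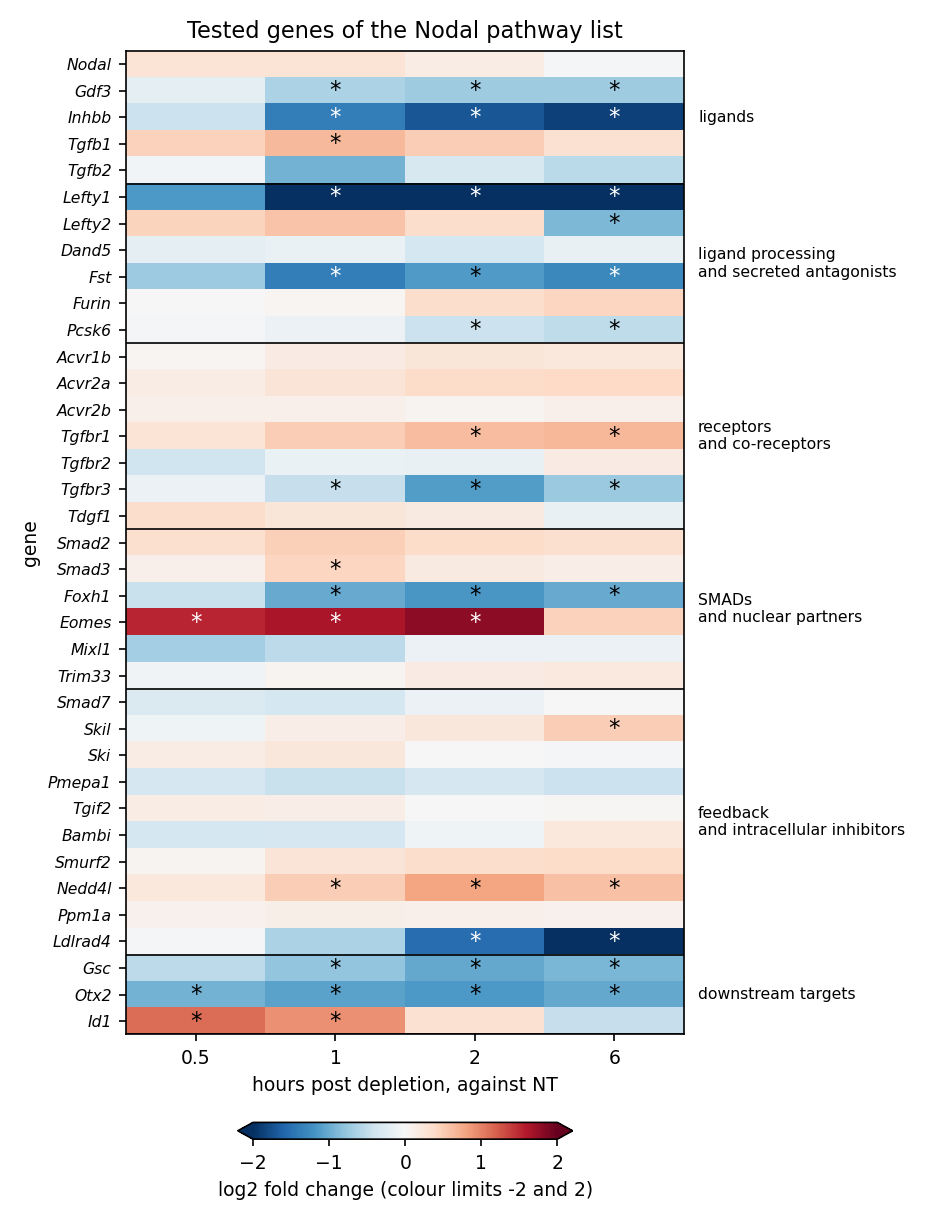
Log2 fold change against NT (colour, limited to -2 and 2) of 37 of the 39 tested pathway genes in rows, grouped by role, at 0.5, 1, 2 and 6 hpd in columns. Stars mark an adjusted p under 0.05. Blue stars gather in Gdf3, Inhbb, Fst, Pcsk6, Tgfbr3, Foxh1, Ldlrad4, Gsc and Otx2 beside Lefty1, and red stars in Eomes, Nedd4l, Tgfbr1 and Id1.

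Among the ligands, Gdf3, a Nodal-like ligand, fell from 60.7 ± 2.25 CPM in NT (mean ± SD, n = 2) to 39.1 ± 3.05 CPM at 1 hpd (log2 fold change -0.63, adjusted p = 0.0024) and stayed called at 2 hpd (-0.71) and 6 hpd (-0.72). Without 1 hpd replicate 2 the call at 1 hpd was lost (-0.56, 0.061). Inhbb, which encodes an activin subunit, fell further, by 1.38 on the log2 scale at 1 hpd (0.0013), 1.72 at 2 hpd and 1.87 at 6 hpd (6e-05). Nodal was not called at any of these times. Tgfb1 rose at 1 hpd (0.66, 0.033) but was not called with DESeq2 (0.68, 0.053) or with total counts (0.57, 0.074), nor without any 1 of the NT and 1 hpd libraries (adjusted p of 0.067 to 0.32), and Tgfb2 was never called (-0.94 at 1 hpd, 0.14).

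Of the 6 tested genes for ligand processing and secreted antagonists, 4 were down at 6 hpd, Lefty1 and Lefty2 with Fst and Pcsk6. Fst encodes follistatin, which traps activin, and was at 2.35 ± 0.276 CPM in NT and 0.895 ± 0.0233 CPM at 1 hpd (-1.38, adjusted p = 0.02). It was called at 2 hpd (-1.14, 0.032) and 6 hpd (-1.29, 0.015) too, although not with DESeq2 (adjusted p of 0.093 to 0.14). Its calls were lost without either library of NT or of the time compared (adjusted p of 0.051 to 0.29), with 2 exceptions (2 hpd replicate 2 for the call at 2 hpd, NT replicate 1 for the last call), and at 2 hpd also with only the libraries compared (0.052). Pcsk6, a convertase that cleaves the Nodal precursor, fell at 2 hpd (-0.43, 0.032) and 6 hpd (-0.51, 0.0085). The call at 2 hpd was lost with RLE factors (-0.40, 0.06), with only the libraries compared (-0.43, 0.08) and without either NT library, either 1 hpd library or 2 hpd replicate 2 (adjusted p of 0.057 to 0.12). That at 6 hpd was lost without NT replicate 2 (0.053) or 6 hpd replicate 1 (0.12). The other convertase gene, Furin, was at 0.43 at 6 hpd (0.14), and the antagonist gene Dand5 at -0.15 (0.47).

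Of the 7 tested receptor and co-receptor genes, 1 was up and 1 down at 2 and at 6 hpd. Tgfbr1, a type I receptor of TGF-β, rose at 2 hpd (0.61, adjusted p = 0.018) and 6 hpd (0.67, 0.0075), whereas the co-receptor gene Tgfbr3 fell from 36.5 ± 2.27 CPM in NT to 26.3 ± 2.04 CPM at 1 hpd (-0.47, 0.023) and 16.8 ± 0.341 CPM at 2 hpd (-1.12, 2e-05). Tgfbr3 was at -0.74 at 6 hpd (0.00049), and its call at 1 hpd was lost with DESeq2 (-0.44, 0.056) and without NT replicate 2 or either 1 hpd library (adjusted p of 0.081 to 0.27). The calls of Tgfbr1 were lost without NT replicate 2 at both times (0.18 and 0.093), without 2 hpd replicate 1 at 2 hpd (0.41, 0.18) and without 6 hpd replicate 2 at 6 hpd (0.57, 0.08). Of the genes for receptors and co-receptors of Nodal itself, 4 had a tested TU and were not called at any time: Acvr2b, Acvr2a (0.39 at 6 hpd, 0.071), Acvr1b (0.21, 0.24) and the Cripto gene Tdgf1 (-0.15, 0.44).

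Among the SMADs and their nuclear partners, Foxh1 was called down from 1 hpd on. It was at 22.9 ± 0.245 CPM in NT and already lower, though not called, at 0.5 hpd (16.8 ± 1.63 CPM, -0.45, adjusted p = 0.13, edgeR). It was then at 11.4 ± 0.228 CPM at 1 hpd (-1.01, adjusted p = 0.00029), 10.2 ± 0.544 CPM at 2 hpd (-1.17) and 11.4 ± 0.966 CPM at 6 hpd (-1.01). Eomes, a T-box factor of mesendoderm, rose and then fell back towards NT: 2.42 ± 0.378 CPM in NT, 6.94 ± 0.102 CPM at 0.5 hpd (1.52, 0.0015), 7.52 CPM at 1 hpd, 8.41 ± 1.09 CPM at 2 hpd (1.79, 4e-05) and 3.33 ± 0.236 CPM at 6 hpd (0.47, not called). Its 6 hpd libraries (3.16 and 3.49 CPM) still lay above both in NT (2.15 and 2.69 CPM). Smad3 rose at 1 hpd (0.43, 0.026), a call lost with total counts (0.34, 0.055) and without NT replicate 2 or either 1 hpd library (adjusted p of 0.15 to 0.19), and Smad2 was at 0.48 there (0.05, just short of the threshold). Trim33 was not called (0.19 at 6 hpd, 0.43), nor was Mixl1, which did not exceed 0.740 CPM.

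Of the 10 feedback and intracellular inhibitors, 2 were up and 1 down at 6 hpd. Beside Skil, Nedd4l, a ubiquitin ligase acting on SMADs, rose at 1 hpd (0.49, adjusted p = 0.029), 2 hpd (0.79, 0.00066) and 6 hpd (0.58, 0.0047), and its call at 1 hpd was lost without any 1 of the NT and 1 hpd libraries (adjusted p of 0.11 to 0.21). Ldlrad4, which keeps SMAD2 and SMAD3 from the receptor, fell from 5.20 ± 0.262 CPM in NT to 1.78 ± 0.623 CPM at 2 hpd (-1.52, 0.0017) and 1.17 ± 0.0700 CPM at 6 hpd (-2.14, 0.00015). Like Smad7, the phosphatase gene Ppm1a (0.08 at 6 hpd, 0.67), the ligase gene Smurf2 (0.37, 0.08) and the Skil paralog Ski (-0.04, 0.82) were not called.

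Among the downstream targets, Gsc and Otx2 were down and Id1 up early. Otx2 was at 8.86 ± 0.529 CPM in NT and 4.70 ± 0.852 CPM at 0.5 hpd (-0.94, adjusted p = 0.024), and was called at all 4 times (-1.02 at 6 hpd, 0.0024). Its call at 0.5 hpd was lost without any 1 of the NT and 0.5 hpd libraries (adjusted p of 0.057 to 0.31), and that at 1 hpd without 1 hpd replicate 1 (0.068). Gsc fell at 1 hpd (-0.79, 0.021), 2 hpd (-1.03, 0.0026) and 6 hpd (-0.92, 0.0042). All 3 calls of Gsc were lost without NT replicate 2 (adjusted p of 0.051 to 0.23), that at 1 hpd also without either 1 hpd library (0.17 and 0.11) and that at 6 hpd without 6 hpd replicate 2 (0.051). Id1, better known as a target of BMP, rose at 0.5 hpd (1.12, 0.021) and 1 hpd (0.92, 0.026) and was at -0.45 at 6 hpd (0.25), with the call at 1 hpd lost with total counts (0.83, 0.064) and without NT replicate 2 or either 1 hpd library (adjusted p of 0.097 to 0.21). That at 0.5 hpd was lost without any 1 of the NT and 0.5 hpd libraries (0.051 to 0.22).

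The TUs most like each member were sought by Pearson's r of log2 CPM over the 10 libraries, among 11937 other TUs (11938 for Lefty1, itself below the limit) with a symbol and a mean of at least 50 fragments, as a description in which points share libraries and depth. Lefty1 was most like Oas1d (r = 0.994), 4930526L06Rik (0.993) and Gm39918 (0.991). Lefty2 was most like the long non-coding RNA gene Tunar (0.979), 1700080G11Rik (0.979) and Cd80 (0.975). The TUs for Skil were Grip1 (0.968), Atxn1 (0.964) and Tanc2 (0.962), and those for Nodal were Gm26562 (0.969), Btg2 (0.947) and Tspan1 (0.944). For the members with little change, Smad7 was most like Pgm1 (0.938), Tert (0.927) and Bhmt2 (0.927), and Acvr2b most like Slmo2 (0.970), Dffa (0.934) and Asap3 (0.932). No member was among the 3 most like another.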

How the data were processed

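Nascent RNA of 10 TT_chem-seq libraries, 5 groups of 2 per the labels, was analysed from the deposited table of raw fragment counts per TU. Per the submitters' processing notes and the study's methods, the authors used BWA 0.7.17-r1188 for alignment to mm10, filtered reads with SAMtools 1.10, removed duplicates with Picard 2.12.0, split alignments by strand, found TUs in pooled libraries with a hidden Markov model in bins, named them from RefSeq and counted fragments in them. TU positions and annotation were deposited by the authors as a separate table, in which transcript starts are counted from 0 and were moved by 1 base here. Pooled libraries fix 1 set of TUs for all samples, so a TU can span more than its gene, and a gene merged into a neighbour has no TU of its own name.

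Counts were fitted in edgeR 4.0.16 (R 4.3.3) with TMM factors, 1 coefficient per group over all 10 libraries and no covariates, and tested with the quasi-likelihood F-test. The filter required over 10 fragments in 2 or more libraries, which left out 0.316% of the fragments. Calls were made at an adjusted p (Benjamini-Hochberg over all TUs tested) under 0.05. The SE was taken from this fit as the size of the log2 fold change over the square root of its F. The 95% intervals are symmetric, from that SE and Student's t, and are rough where counts are low. CPM use the TMM factors. The biological coefficient of variation was 10%. Library totals set the precision, and replicates of a group differed beyond counting error (chi-square over its degrees of freedom, 2.69 to 9.08), so no pair was 1 library deposited again. The procedure was tested on simulated counts.

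The members and gene lists were chosen with earlier results of these data known. Named were the 6 members, Sox2, the pathway genes called at any time with up to 3 others per role of the highest mean CPM, TUs called within 50 kb of a member, and the 3 TUs most like each member. Some genes that this rule takes are not reported here, although the counts over the pathway list include them. Alternatives were RLE factors, total counts only, DESeq2 1.42.0, no filter on counts, a mean of at least 50 fragments, the replicate number as a block, a fit of only the libraries compared, and leaving out each library. Motifs and stretches of 50 bases were searched with Python 3.11.15.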

Additional observations from a re-analysis of the deposited data

Results flagged for a closer look

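The change after depletion differed between times, by a test of the difference itself in edgeR over all 10 libraries, for Lefty2 and 4 other genes of the pathway list. Lefty2 was lower at 6 than at 2 hpd (log2 difference -1.26 ± 0.22, adjusted p = 0.013) and lower at 6 than at 1 hpd (-1.47 ± 0.22, 0.00094), in both libraries of 6 hpd against all 4 of the earlier times. Eomes, which had risen early, was lower at 6 than at 2 hpd (-1.33 ± 0.19, 0.0032) and than at 1 hpd (-1.17 ± 0.19, 0.0021). Id1 was lower at 6 than at 1 hpd (-1.37 ± 0.24, 0.003), and so was the feedback gene Ldlrad4 (-1.51 ± 0.30, 0.0087). Tgfbr3 was lower at 2 than at 1 hpd (-0.65 ± 0.12, 0.036). The sum of primitive endoderm markers also differed between these times, at 27.1 to 33 CPM at 1 hpd, 36 to 41.6 CPM at 2 hpd and 51.7 to 62.4 CPM at 6 hpd, and its part in these differences was not tested.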

How the results depend on the processing

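The falls of Lefty1 at 1, 2 and 6 hpd, of Lefty2 at 6 hpd and the rise of Skil at 6 hpd were called under RLE factors, total counts, DESeq2, no count filter and only the libraries compared. With a mean of at least 50 fragments Lefty1 was not tested, so that 0 members were called at 1 hpd and 0 at 2 hpd, and Smad7 at 6 hpd was -0.05. Total counts only moved the median change over all TUs at 2 hpd from -0.040 to -0.155 (log2), gave -0.07 for Acvr2b at 2 hpd and -0.09 for Smad7 at 6 hpd. With only the libraries compared, Lefty2 was called up at 1 hpd (0.59), which made 2 members there, and 3 members were called between 1 and 6 hpd. Under total counts the share of called TUs that were up was 27.3% in place of 37.3% at 1 hpd, 28.8% in place of 43.4% at 2 hpd and 31.9% in place of 41.8% at 6 hpd.

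Nothing in the labels pairs the replicate numbers. The correlation of same-numbered deviations was over 0.1 in 8 of 10 pairs of groups (0.074 to 0.291), among them the 4 pairs with NT (0.101 to 0.251), and the fit without a block was kept because the limit of 0.1 was not passed in all 10. With the replicate number as a block, 1120, 3188, 5446 and 7430 TUs were called at the 4 times in place of 374, 1637, 2798 and 4498. Members called were then 2 at 0.5 hpd, 3 at 1 hpd, 2 at 2 hpd, 5 between 1 and 6 hpd and 5 in the joint test, and pathway genes 9 at 0.5 hpd and 20 at 2 hpd. In the block fit Lefty1 was called at 0.5 hpd (-1.11), Lefty2 at 0.5 hpd (0.44, adjusted p = 0.029), 1 hpd (0.55, 0.0021) and 2 hpd (0.33, 0.041), and Smad7 at 1 hpd (-0.34).

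Leaving out each library in turn gave -1.26 to -0.62 for Lefty2 and 0.40 to 0.58 for Skil at 6 hpd, the lone library of a group being taken to vary like the others. Values of uncalled members crossed 0, with Nodal at -0.02 to 0.30 at 2 hpd and -0.16 to 0.07 at 6 hpd. Smad7 ran from -0.52 to 0.01 at 0.5 hpd, -0.36 to 0.16 at 2 hpd and -0.24 to 0.32 at 6 hpd, and Acvr2b from -0.06 to 0.28, -0.05 to 0.30, -0.12 to 0.23 and -0.05 to 0.30 in the order of time. Ldlrad4 (-0.34 to 0.15) and Pcsk6 (-0.08 to 0.00) crossed 0 at 0.5 hpd. Pathway genes called ranged from 1 to 3 at 0.5 hpd and 5 to 16 at 1 hpd, and members called from 0 to 1 between 2 and 6 hpd and 1 to 2 between 1 and 6 hpd. Where no reason is given, the cause was not tested. With 4 to 60 fragments per library, Lefty1 carries the widest intervals of the 6 genes.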
